A study of Bos taurus with 18 samples.

Results

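The response of 5-month dermal fibroblast cultures to 8 h of lipopolysaccharide (LPS) was read from 6 of the 18 RNA-Seq libraries of the study. These were the 3 libraries labelled 5 months of age at 8 h after LPS and the 3 libraries labelled 5 months at 0 h, paired by animal. The cells were primary skin fibroblasts of 3 Holstein cattle, grown with fetal bovine serum and given 100 ng/ml of LPS, and the wells for both times came from the same culture of each animal. Comparison groups were the same 5-month cultures at 2 h and the 16-month cultures of the same 3 animals at 0 h and 8 h. According to the methods the animals were picked for a middling LPS response out of a larger collection of heifers. Per the labels, lysates of 2 wells were pooled before RNA isolation. With 3 animals, the p-values of the 8 h comparison measure how the change from 0 h to 8 h varied between cultures. That spread was estimated over the 5-month and 16-month cultures together. No culture kept for 8 h without LPS was analysed here, so a change caused by LPS and a change with time in culture cannot be told apart.

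LPS is a component of the outer membrane of Gram-negative bacteria. It is sensed by toll-like receptor 4 (TLR4) together with its partner LY96 (MD-2) and the co-receptor CD14, and the signal runs through adaptor proteins to the transcription factor NF-kB and to interferon regulatory factors. Fibroblasts answer with chemokines that draw neutrophils and monocytes, with cytokines, and with inhibitors that shut NF-kB down again.

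The 6 libraries held between 53406790 and 106816944 reads, and between 67923762 and 127757907 counts over 27550 gene windows, each of which spans a gene with its introns. Levels are given as CPM, counts scaled to a common library size by the gene-window counts of a library and not corrected for gene length, so they are not compared between genes. The labels give no batch. Fibroblast markers summed to between 88580 and 97780 CPM at 0 h and between 83230 and 117200 CPM at 8 h, with all 13 of 13 markers present. The macrophage markers in the files, 13 in all, summed to 8.00 to 23.2 CPM at 0 h and 6.66 to 20.3 CPM at 8 h, with TYROBP and C1QA at 0 reads in all 6 libraries. Smooth muscle and pericyte markers, several of which fibroblasts in culture also express, summed to 6633 to 10040 CPM at 0 h and 7021 to 8715 CPM at 8 h, led by ACTA2. Keratinocyte markers summed to at most 1.84 CPM. Of the marker genes, 13 of fibroblasts, 7 of smooth muscle and pericytes, 3 of melanocytes and Schwann cells and 1 each of macrophages, endothelium and lymphocytes passed the filter on low counts, keratinocyte markers had 0, and 0 of those tested were called, so for most of these cell types the summed levels are the only measure. In these bulk cultures, fewer cells of a type and less RNA per cell cannot be told apart.

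Of 12972 genes tested, 205 (1.58%) were called, 143 (1.10%) higher and 62 (0.478%) lower at 8 h than at 0 h. Of the tested genes 14 (0.108%) were under 1 CPM in all 6 libraries at 0 h of both ages. These passed the filter on low counts only through 8 h, and 9 of them were called higher and 0 lower. A gene was called when its Benjamini-Hochberg adjusted p was under 0.05 in edgeR's quasi-likelihood test and its change was at least 2-fold, which is 1 on the log2 scale used below. With the adjusted p alone, 5459 genes (42.1%) passed, 2626 (20.2%) higher and 2833 (21.8%) lower, so most of the genes that moved did so by less than 2-fold. Of the 205, 204 had the same sign in 3 of 3 animals, and in 182 the 0 h and 8 h values did not overlap once scaled by TMM factors, which held for 4878 (37.6%) of all genes tested. The exception in sign was C1RL. The counts of 204 and 182 come from the same pairs that gave the calls, so they are a description and no separate support. The median log2 change of all genes was -0.01. Just inside the 2-fold limit were TCEA3 at -1.0004 and AMIGO1 at -1.002, and just outside it were LFNG at 0.995 and TSPAN12 at 0.997, so the count of calls depends on where that limit is set.

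**Figure D1:**
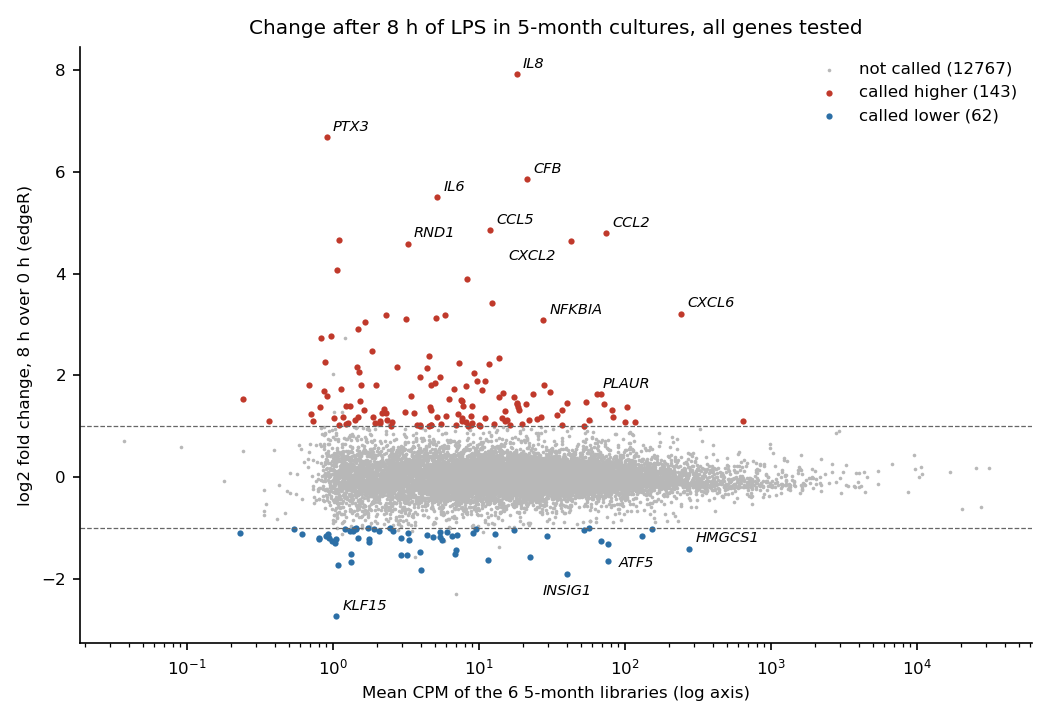
The log2 fold change at 8 h over 0 h in 5-month cultures is plotted against the mean CPM of the 6 libraries (log axis) for all 12972 genes tested. Dashed lines mark a 2-fold change, red and blue points are the 143 genes called higher and the 62 called lower, and the rises reach 7.92 (IL8) while the falls end at -2.73 (KLF15).

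The receptor side of the pathway changed little. TLR4 was at 1.17, 1.27 and 1.30 CPM in animals 1, 2 and 3 at 0 h and at 1.22, 0.913 and 1.05 CPM at 8 h. These unscaled values overlap, whereas after scaling by TMM factors the groups did not overlap and 3 of 3 pairs were lower at 8 h. The log2 change was -0.25 ± 0.133 (SE, n = 3 animals, edgeR adjusted p 0.168). LY96 fell slightly, by 0.22 on the log2 scale (adjusted p 0.0132). CD14 lay under the filter on low counts, with 57 reads at 0 h and 109 at 8 h, and was not tested. Among the adaptors and kinases, MYD88 at 0.02, TRAF6 at 0.02, IRAK4 at 0.01 and TBK1 at 0.05 on the log2 scale did not pass the test. TLR2, the receptor for bacterial lipoproteins, was the exception, called higher by 2.77 ± 0.200 (adjusted p 9.94e-05) from 82 reads at 0 h to 460 at 8 h. It was the only called member of 19 tested in the list of LPS receptor and adaptor genes, against 1.58% of all genes tested. Past the test but under 2-fold were IRAK2 (0.59), TRAF3 (0.37), TLR3 (0.20) and TAB2 (0.18). The list median was 0.05.

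NF-kB itself was described by 19 tested genes of its subunits, inhibitors and regulators. Of these, 7 were called higher, against 1.10% of all genes tested, and 0 lower, and 12 passed the test without the fold limit, all of them higher, against 20.2% of all genes. The inhibitors differed among themselves. NFKBIA, which holds NF-kB in the cytoplasm, was at 5.46, 6.21 and 5.73 CPM at 0 h and at 50.9, 46.8 and 51.3 CPM at 8 h. The 3 cultures were nearly identical at both times, and the rise was 3.09 ± 0.103 (adjusted p 4.08e-06). TNFAIP3 (A20), a ubiquitin-editing enzyme that ends NF-kB signalling, rose from 0.532, 1.28 and 1.31 CPM to 10.2, 8.11 and 9.35 CPM, or by 3.13 ± 0.370. NFKBIZ, a nuclear inhibitor-like cofactor, rose by 1.88, the ubiquitin ligase BIRC3 by 1.81, the kinase MAP3K8 by 1.73 and the A20 partner TNIP1 by 1.43. The inhibitor NFKBIE passed the test below 2-fold (0.48), and NFKBIB (0.18), TNIP2 (0.14) and the inhibitor-like BCL3 (-0.33) did not pass it. Among the subunits RELB was called at 1.17. NFKB2 (0.97) and NFKB1 (0.87) passed the test below 2-fold, and RELA was at 0.13 with an adjusted p of 0.0778.

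Chemokines had the highest median change of the 17 lists. Of 19 chemokine genes in the files, 7 were expressed enough to be tested. Of these, 5 were called, all higher, against 1.10% of all genes tested. The list median was 4.64 against -0.01 for all genes. At 0 h IL8 reached 1 CPM only in the 16-month culture of animal 3 (1.13 CPM). It thus passed the filter through 8 h libraries, where it is high, and both the share and the median include it. IL8 (chromosome 6, 90559882 to 90563647 in UMD 3.1), the main neutrophil attractant, was at 0.181, 0.102 and 0.170 CPM at 0 h and at 39.5, 32.1 and 37.4 CPM at 8 h. That is 46 reads over the 3 libraries at 0 h and 10236 at 8 h, and the rise of 7.92 ± 0.365 (adjusted p 2.32e-05) was the largest of all genes tested. CCL2 (chromosome 19, 16232956 to 16234822), which recruits monocytes, went from 6.40, 2.36 and 6.28 CPM to 179, 58.9 and 194 CPM. Animal 2 was lowest at both times, and the rise of 4.79 ± 0.0978 had a small error since the 3 animals moved in parallel. CCL5, an attractant of T cells and monocytes, rose from 0.907, 0.235 and 1.30 CPM to 28.8, 17.5 and 22.7 CPM (4.86 ± 0.327, or 5.48 without 5-month replicate 3). CXCL6, another neutrophil attractant, was already present at 0 h with 53.0, 27.9 and 67.4 CPM and reached 446, 347 and 528 CPM (3.22 ± 0.179). CXCL2, called at 4.64 ± 0.188, lies 47411 bases from CXCL6 on chromosome 6, but its window overlaps that of LOC100847175, so its reads cannot be assigned to it with certainty. The tested chemokines that were not called were CXCL12 at -0.01 and CXCL16 at 0.24. Of the other 12, 5 had 0 reads in all 6 libraries, and CCL20 and CX3CL1 had reads only after LPS.

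Among 8 tested cytokines, 3 were called, all higher, against 1.10% of all genes tested. One of these, IL6, reached 1 CPM at 0 h only in the 16-month culture of animal 2 (1.01 CPM). It thus passed the filter through 8 h libraries, where it is high. IL6 (chromosome 4, 31578311 to 31582679), which drives the acute phase response, was at 0.0389, 0.540 and 0.0448 CPM at 0 h and at 10.9, 12.9 and 6.67 CPM at 8 h, a rise of 5.51 ± 0.536 (adjusted p 0.000321). Its 0 h level in animal 2 stood well above the other two, and without 5-month replicate 2 the rise was 7.54 ± 0.772. LIF, a cytokine of the same family, rose by 2.16 ± 0.176 and the epithelial-type cytokine IL36A by 2.17 ± 0.146. CSF1 passed the test at 0.31, IL34 passed it at -0.50, and IL15 (0.26), IL7 (0.02) and IL33 (-0.15) did not. TNF was under the filter at both times, with means of 0.0316 CPM at 0 h and 0.0207 CPM at 8 h.

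Some genes were silent before LPS. SAA3, an acute phase protein made locally by many tissues, had 0 reads in the 3 libraries at 0 h and 1.23, 1.00 and 0.676 CPM at 8 h, at least 103-fold higher against a floor of 3 reads over the group. By the same bound the membrane-bound chemokine CX3CL1 was at least 75.0-fold higher, CCL20 at least 35.8-fold, IL37 at least 17.1-fold and IL36RN at least 13.7-fold. These 5 were taken from the genes with 0 reads at 0 h by their mean CPM at 8 h, so their levels are a description. The bounds cover counting error at 0 h only. They do not cover counting error at 8 h or the spread between animals. None of the 6049 gene windows without a read at 0 h reached a mean of 1 CPM at 8 h.

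**Figure D2:**
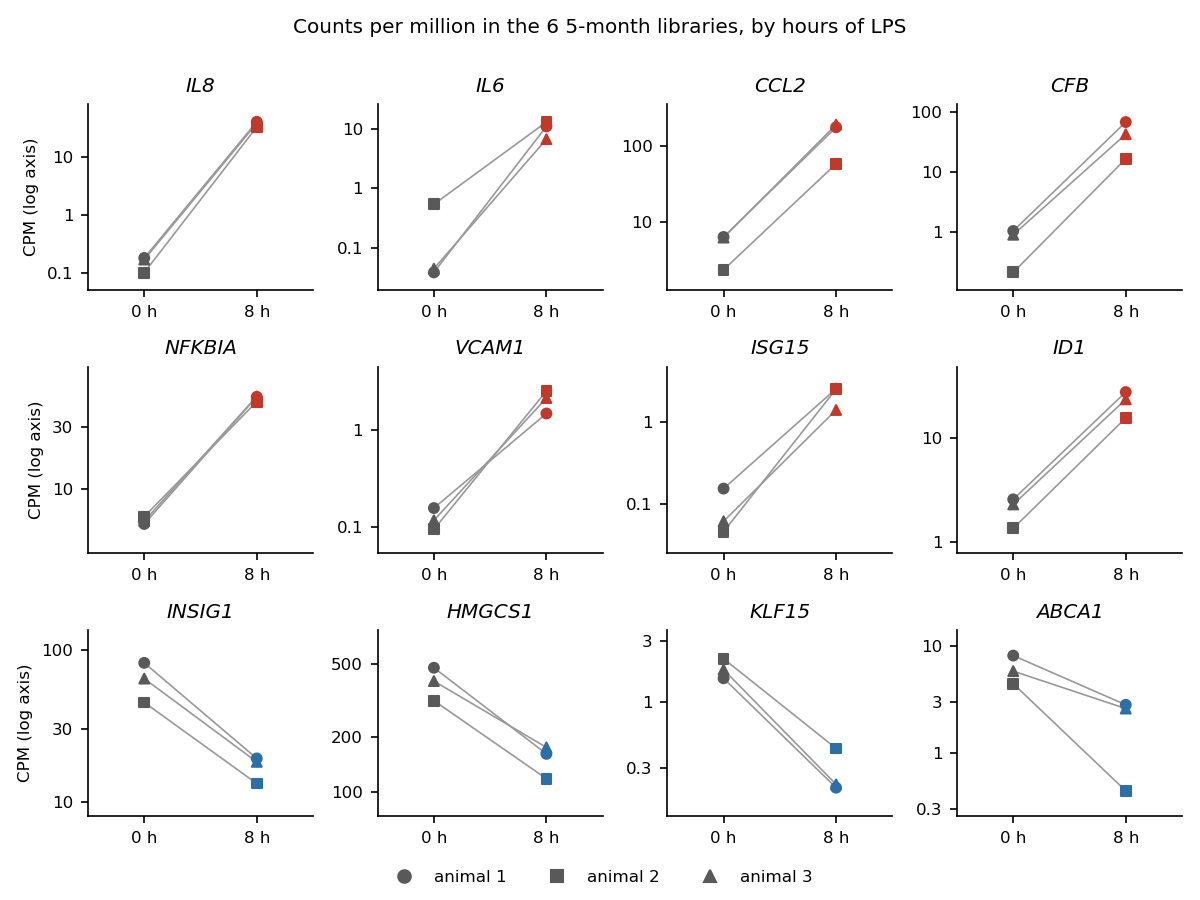
CPM (log axis) of 12 genes in the 6 5-month libraries, with a line joining the 0 h and 8 h library of each animal. In each panel the 3 lines run the same way; the 0 h values of IL6 spread from 0.0389 to 0.540 CPM, and those of NFKBIA only from 5.46 to 6.21 CPM.

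Type I interferons switch on a set of antiviral genes through transcription factors that include STAT2 and IRF9. Of 33 tested interferon-stimulated genes, 9 were called higher, against 1.10% of all genes tested, and 0 lower. Without the fold limit 17 passed the test, all of them higher, against 20.2% of all genes, and the list median was 0.33. ISG15, IFIH1 and CMPK2 were under 1 CPM in all 6 libraries at 0 h and so passed the filter only through 8 h libraries, where they are high, which leaves 6 called of 30. Without the replicate block 8 passed the test. ISG15, a ubiquitin-like antiviral protein, was at 0.156, 0.0470 and 0.0627 CPM at 0 h and at 2.50, 2.47 and 1.38 CPM at 8 h (4.67 ± 0.357, 25 reads at 0 h). IFIH1 (MDA5), a sensor of viral RNA, rose by 3.19 ± 0.197 from 0.461 ± 0.101 to 4.21 ± 0.452 CPM (SD, n = 3). OAS1, an antiviral nucleotide synthetase, rose by 3.12 ± 0.252, but its window overlaps OAS2 and it has close paralogues, so its reads may be shared. CMPK2 (1.69), IRF1 (1.45), IFI27 (1.38), RTP4 (1.28), MX1 (1.09) and BST2 (1.02) were the other called members. MX1 overlapped between times, at 6.72, 1.75 and 7.37 CPM at 0 h and 16.1, 4.39 and 13.0 CPM at 8 h, with animal 2 low at both, and its call was lost without 5-month replicate 1 or replicate 2. The transducers STAT2 (0.03) and IRF9 (0.04) did not pass the test. The ligand IFNB1 was under the filter, with means of 0.119 CPM at 0 h and 0.212 CPM at 8 h.

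Genes that load peptides on MHC class I moved in part. PSMB9, a subunit of the immunoproteasome, rose by 2.27 ± 0.430 and the adjacent peptide transporter gene TAP1, 557 bases away on chromosome 23, by 1.03 ± 0.152, a call that was lost without 5-month replicate 2. Without 5-month replicate 1 the rise of PSMB9 was 1.67. PSMB9 and TAP1 were the 2 called genes of 17 tested, against 1.58% of all genes. Of the 17, 7 passed the test as higher, against 20.2%. Without 5-month replicate 1 or without the replicate block 4 did, which is near that share. B2M, the shared light chain (0.06), and the class I gene BOLA (0.05) did not pass the test, whereas BOLA-A (0.17) and BOLA-NC1 (0.71) passed it below 2-fold. BOLA genes are near copies of each other, so reads may be split between them.

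In the complement and acute phase list 3 of 14 tested genes were called, or 2 of 13 without PTX3, which was under 1 CPM in all 6 libraries at 0 h and passed the filter only through 8 h. The share of all genes tested that were called higher was 1.10%. CFB (chromosome 23, 27225266 to 27231292), a protease component of the alternative complement pathway, was at 1.04, 0.211 and 0.896 CPM at 0 h and at 68.1, 16.6 and 42.7 CPM at 8 h. The animals kept their order, with animal 2 lowest, and the rise of 5.86 ± 0.126 (adjusted p 3.75e-07) had one of the lowest adjusted p of the comparison. PTX3, a secreted pattern recognition protein, rose by 6.69 ± 0.427, but from 5 reads at 0 h, and its window overlaps VEPH1. Without 5-month replicate 2 the rise was 7.47. The counts alone gave a ratio of 118 with a 95% interval of 50.3 to 365. C1RL was called at 1.24 (adjusted p 0.0294) and lost the call without 5-month replicate 2 (0.91) or replicate 3. C1R (0.61) and C1S (0.51) of the classical pathway passed the test below 2-fold, whereas C3 was at -0.11 (adjusted p 0.609).

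Of 11 tested genes of prostaglandin synthesis and turnover 3 were called higher, against 1.10% of all genes tested. With the replicate block 8 passed the test as higher, against 20.2% of all genes, and without it only 3 did. PTGS2 (cyclooxygenase-2), the inducible enzyme of the pathway, went from 5.02, 3.25 and 4.08 CPM to 23.3, 13.7 and 21.5 CPM (2.22 ± 0.178), though it overlaps LOC100138376. PLA2G4A, which frees arachidonic acid and lies 171838 bases from PTGS2 on chromosome 16, rose by 1.68 ± 0.105 and PTGS1 by 1.63 ± 0.130. PTGS1 differed widely between animals, at 18.5, 3.24 and 10.9 CPM at 0 h and 64.0, 8.26 and 35.5 CPM at 8 h, so its groups overlap although each animal rose. PTGFR (0.88), PTGES (0.61), PTGIS (0.49) and PTGER4 (0.47) passed the test as higher with the block, and PTGR1 fell by 0.32.

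Surface and matrix genes added a few strong rises. VCAM1, which binds leukocytes, rose by 4.07 ± 0.325 from 0.156, 0.0939 and 0.116 CPM to 1.46, 2.49 and 2.11 CPM, and was 1 of 5 called genes of 19 in its list. It passed the filter only through 8 h, which leaves 4 of 18, against 1.10% of all genes called higher. The others were F3 (tissue factor) at 2.34, the costimulatory receptor CD40 at 2.06, the scavenger receptor OLR1 at 1.90 and IL1RL1, the IL-33 receptor, at 1.65. ICAM1, the companion of VCAM1 in many cells, did not pass the test at 0.01 (20.9, 20.7 and 22.5 CPM at 0 h against 23.3, 20.3 and 21.5 CPM at 8 h). Of 32 tested matrix genes 4 were called, the hyaluronan synthase HAS2 (2.91 ± 0.154), COL11A2 (2.07), the protease ADAMTS6 (1.71) and the urokinase receptor PLAUR (1.63, overlapping LOC100847310). HAS2 and COL11A2 passed the filter only through 8 h, which leaves 2 of 30, against the same 1.10%. The list median was 0.11. The main collagens COL1A2 (0.19) and COL3A1 (0.17) moved little. COL1A1 went in different directions, from 27706, 10457 and 27823 CPM to 8637, 38798 and 9154 CPM in animals 1, 2 and 3, and did not pass the test (-0.62, adjusted p 0.550). The 10 most abundant gene windows took 23.3% of the counts of animal 2 at 8 h and 14.3% to 17.7% in the other 5 libraries. Without 5-month replicate 2 the comparison called 248 genes.

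BMP and Notch are signalling pathways of development and differentiation. Of 14 of their targets and regulators tested, 5 were called higher, against 1.10% of all genes tested, and 0 lower, with a median of 0.73. ID1, an inhibitor of differentiation factors and a direct BMP target, went from 2.58, 1.35 and 2.303 CPM to 28.0, 15.7 and 23.8 CPM (3.43 ± 0.142, adjusted p 1.26e-05). SMAD9, a BMP signal transducer, rose by 1.97 ± 0.124, the Notch target HEY1 by 1.50, the inhibitory SMAD7 by 1.404 and ID3 by 1.08. BMP4, one of the ligands, fell by 0.91 (adjusted p 0.000614), and BMP2 was at 0.22 without passing the test.

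Outside the lists, RND1, a small GTPase that loosens cell adhesion, rose by 4.59 ± 0.313 from 0.117, 0.485 and 0.143 CPM to 6.88, 6.14 and 5.80 CPM, or by 5.50 without 5-month replicate 2. SAMD11 rose by 3.89 ± 0.455 (4.67 without the same replicate) and SERPINB2, an inhibitor of plasminogen activators, by 3.18 ± 0.160. The metal-binding MT2A was called at 1.85. It was the only called gene of 18 tested in the oxidative and metal stress list, against 1.10% of all genes called higher. In that list 11 genes passed the test as higher and 5 as lower, against 20.2% and 21.8% of all genes tested. The number lower is thus near the background. The number higher was 6 without 5-month replicate 2, and 7 without replicate 3 or without the replicate block. Those higher included SLC39A14 (0.88), SOD2 (0.72), TXNRD1 (0.63), TXNIP (0.55), SRXN1 (0.46) and GCLM (0.43). CAT (-0.51), GPX1 (-0.50), HMOX1 (-0.55), NQO1 (-0.27) and SOD1 (-0.26) passed the test as lower.

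Sterol synthesis had the most called falls of any list. Cells make cholesterol through a chain of enzymes whose genes are switched on by the SREBP transcription factors, and INSIG proteins hold SREBP back when sterol is plentiful. All 26 tested genes of this list were lower at 8 h with an adjusted p under 0.05, against 21.8% of all genes tested, and 7 of the 26 were called, against 0.478%. The list median was -0.66. With library size as the only scaling all 26 were still lower and 25 passed the test.

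INSIG1 (chromosome 4, 117906798 to 117920023), itself an SREBP target, was at 81.7, 44.9 and 64.4 CPM at 0 h and at 19.3, 13.2 and 18.3 CPM at 8 h, a fall of 1.90 ± 0.0837 on the log2 scale (adjusted p 1.72e-05). HMGCS1, the first committed enzyme, went from 478, 316 and 405 CPM to 162, 118 and 176 CPM and fell by 1.403 ± 0.0841. FDFT1, which makes squalene, fell by 1.32 and the transcription factor gene SREBF1 by 1.26, from 113, 72.4 and 104 CPM to 47.6, 33.1 and 40.5 CPM. MVD (-1.16), SQLE (-1.16) and LSS (-1.003) completed the called genes. In all 7 called genes the values at 8 h lay below those at 0 h without overlap. After scaling by TMM factors, the groups did not overlap in 88.8% of all called genes and 37.6% of all genes tested. Below 2-fold were the transcription factor gene SREBF2 (-0.66), its escort SCAP (-0.27) and INSIG2 (-0.21). Of 2 further lipid genes outside the list, ACSS2, which makes acetyl-CoA, fell by 1.64 ± 0.129. ABCA1, which exports cholesterol, fell by 1.83 ± 0.469, from 8.15, 4.45 and 5.83 CPM to 2.82, 0.442 and 2.60 CPM. The fall of ABCA1 was deepest in animal 2, and its call was lost without 5-month replicate 1 or replicate 2 (-1.40 in the latter).

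**Figure D3:**
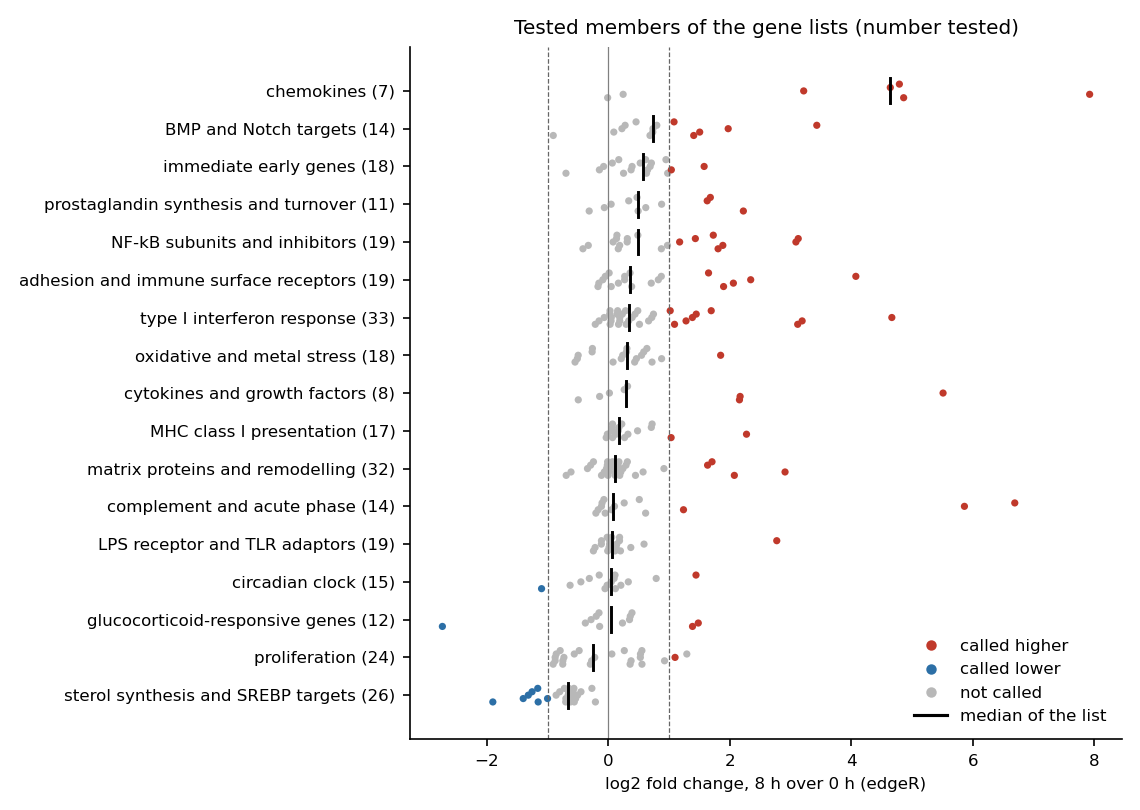
Each point is a tested member of 1 of 17 gene lists, placed by its log2 fold change at 8 h over 0 h in 5-month cultures, with the number tested beside the list's name. Black bars are list medians, which run from 4.64 for chemokines to -0.66 for sterol synthesis, and dashed lines mark a 2-fold change.

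KLF15, a transcription factor induced by glucocorticoids, had the largest fall of all called genes, from 1.53, 2.18 and 1.79 CPM to 0.209, 0.427 and 0.222 CPM (-2.73 ± 0.273, adjusted p 0.000352). Of the other glucocorticoid-responsive genes, ERRFI1 (1.48) and ANGPTL4 (1.38) were called higher, FKBP5 (0.36) and DUSP1 (0.39) passed the test as higher, and TSC22D3 (-0.29) and SGK1 (-0.38) as lower, with a median of 0.04 over 12 tested. With KLF15, 3 of the 12 were called, against 1.58% of all genes tested. In the circadian clock list ARNTL (BMAL1), the positive arm of the clock, rose by 1.44 ± 0.131 and DBP, an output gene, fell by 1.10 ± 0.105. They were the 2 called genes of 15, against 1.58% of all genes tested, and PER2 did not pass the test (0.05 ± 0.0952). The remaining large falls were MXD3 (-1.72), RGMA (-1.67), ATF5 (-1.64, overlapping NUP62), LMCD1 (-1.57), LRRN2 (-1.53) and the xenobiotic-metabolising enzyme CYP1A1 (-1.53).

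Of 24 proliferation genes tested, 11 passed the test as lower and 7 as higher, against 21.8% and 20.2% of all genes tested. Called were 1 higher and 0 lower, against 1.10% and 0.478% of all genes tested, so the calls say little about the list. Without 5-month replicate 1, 4 passed as higher. TOP2A, a topoisomerase, was at 43.2, 29.7 and 54.1 CPM at 0 h and 21.1, 20.5 and 24.98 CPM at 8 h (-0.91 ± 0.124), and MKI67 (-0.86), CDC20 (-0.88), CCNB2 (-0.88) and CCNB1 (-0.80) passed the test as lower, as did TYMS (-0.30), an enzyme of nucleotide synthesis. CDT1, which licenses replication origins, was called higher at 1.10 ± 0.211, and MCM3 (0.92), MCM4 (0.55), E2F1 (0.55), MCM2 (0.53) and CCNE2 (0.53) passed the test as higher. The kinases AURKA (-0.23) and AURKB (-0.28) did not pass it, nor did MCM5 (0.36), MCM6 (0.06), CDC6 (1.29) and RRM2 (0.37). CDT1 overlaps APRT, and its call was lost without 5-month replicate 1 (0.89) or replicate 2. Without 5-month replicate 2 the list held 4 genes called lower, in a fit that called 79 of 12987 genes lower. The maintenance methyltransferase DNMT1 (0.27, adjusted p 0.00553) and its partner UHRF1 (0.39, adjusted p 0.0252) passed the test as higher. The housekeeping gene ACTB did not pass the test, at 4058 ± 65.8 and 3829 ± 63.7 CPM (SD, n = 3), with a change of -0.09 (adjusted p 0.210), while GAPDH fell by 0.26 (adjusted p 0.00301).

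The same cultures at 2 h place these genes in time. In a fit of the 9 5-month libraries with the animal as block, 421 of 12792 genes (3.29%) were called between 2 h and 8 h, 234 (1.83%) higher and 187 (1.46%) lower at 8 h. The split was 122 higher and 154 lower when a CPM of at least 1 was asked in all 9 libraries, and 293 and 161 with library size as the only scaling. The 8 h libraries enter this comparison as well as the first one. Of the genes called higher at 8 h than at 0 h, 44 were also higher at 8 h than at 2 h, 20 were lower, 58 were called in neither direction, and 21 were not tested in this fit. Of those called lower, 28 were lower at 8 h than at 2 h, 0 were higher, 24 were called in neither direction and 10 were not tested.

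IL8 averaged 0.151, 11.9 and 36.3 CPM at 0, 2 and 8 h, rising by 6.32 up to 2 h and by 1.62 from then to 8 h. CFB rose by 3.76 after 2 h and CXCL6 by 2.35. PLA2G4A averaged 14.5 CPM at 0 h, 14.3 CPM at 2 h and 46.8 CPM at 8 h. Other genes stood below their 2 h level by 8 h. LIF averaged 0.550, 25.5 and 2.39 CPM at the 3 times, NFKBIA 5.80, 134 and 49.7 CPM, ID1 2.08, 98.6 and 22.5 CPM, and tissue factor F3 4.50, 96.6 and 23.0 CPM, each called lower at 8 h than at 2 h. Of 18 immediate early genes, the first wave of transcription factors, 10 were called lower at 8 h than at 2 h, against 1.46% of all genes tested. FOSL1 (1.58) and DUSP6 (1.04) were still called above 0 h, against 1.10% of all genes, DUSP6 not without 5-month replicate 2. Without the fold limit, 12 of the 18 passed the test as higher at 8 h than at 0 h, against 20.2% of all genes. Without the replicate block 8 did. The list median was 0.57. For the chemokines CCL2 (0.52, adjusted p 0.0511) and CXCL2 (0.06) the change between 2 h and 8 h was not called.

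Of the sterol genes, INSIG1 averaged 63.7 CPM at 0 h, 110 CPM at 2 h and 16.9 CPM at 8 h, and SQLE 181, 213 and 80.7 CPM. HMGCS1 was at 400, 457 and 152 CPM. FDFT1, at 109, 82.6 and 44.0 CPM, passed the test between 0 h and 2 h below 2-fold (-0.31), and SREBF1, at 96.7, 81.9 and 40.4 CPM, did not pass it there. Of the 26 genes of the list 8 were called lower at 8 h than at 2 h, against the same 1.46%, and 0 higher. KLF15 averaged 1.84, 2.84 and 0.286 CPM, above its 0 h level at 2 h and below it at 8 h, as did INSIG1.

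**Figure D4:**
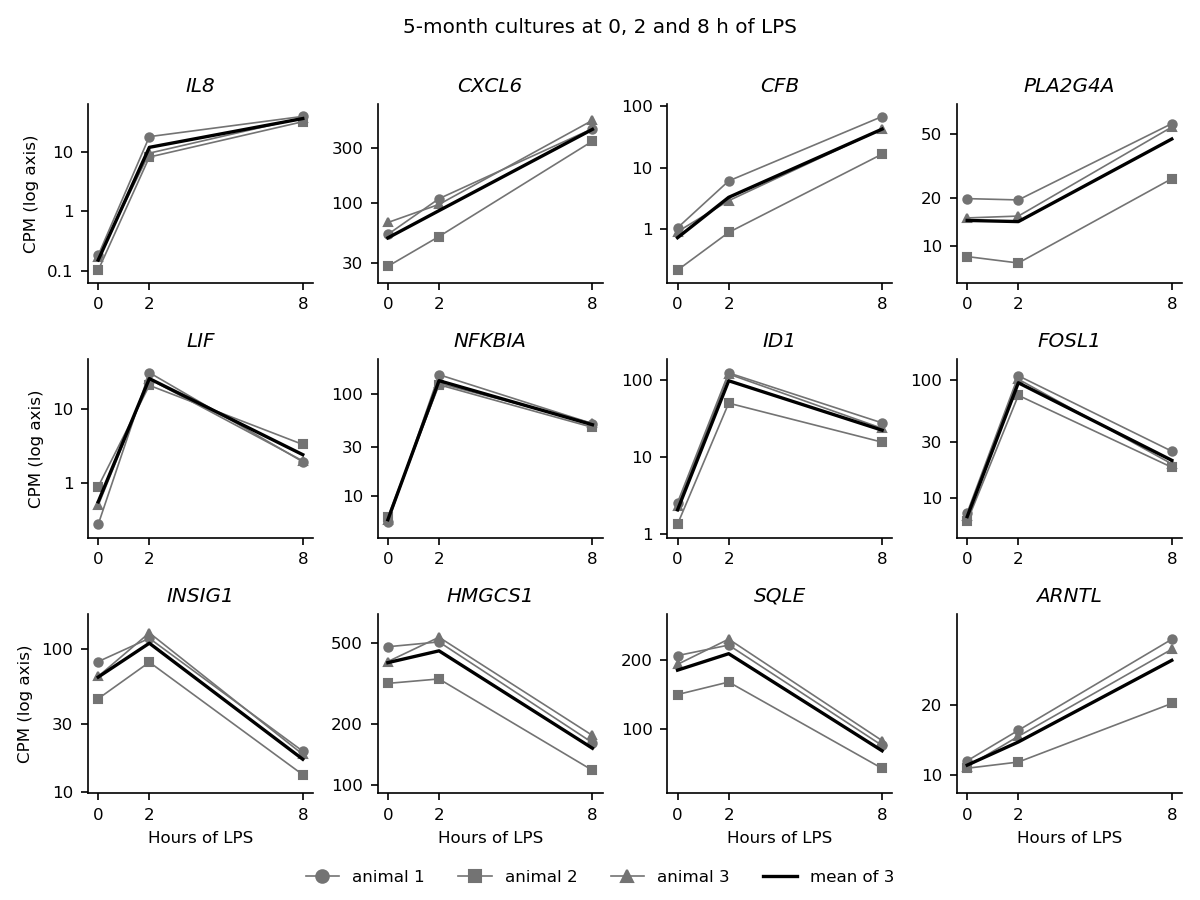
CPM (log axis) of 12 genes in the 5-month cultures at 0, 2 and 8 h of LPS, with thin lines for the 3 animals and a thick line for their mean. The means of the top row are highest at 8 h, the middle row peaks at 2 h, and INSIG1, HMGCS1 and SQLE fall below their 0 h level only at 8 h.

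Whether the response differed with age was asked in the same 12-library fit, by testing the change in 16-month cultures minus the change in 5-month cultures. The 16-month cultures of the same animals had 437 called genes (3.37%) at 8 h. Of the 205 genes called in 5-month cultures, 55 were not called in 16-month cultures, but the difference itself was called for only 3 of these 55. The absolute change was larger in 16-month cultures for 122 of the 205. The difference was called for 35 of 12972 genes (0.270%), 24 (0.185%) with a higher and 11 (0.0848%) with a lower log2 change in 16-month cultures, and 17 of the 35 were among the 205.

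Several interferon genes were among them. OAS1 rose by 3.12 in 5-month and by 6.11 in 16-month cultures, a difference of 3.00 (adjusted p 0.0251). MX1 rose by 1.09 and 3.35, IFIH1 by 3.19 and 4.83 and CMPK2 by 1.69 and 3.38, all with the difference called. For the list as a whole the median was 0.33 in 5-month and 0.98 in 16-month cultures, and 6 of 33 differences were called, all larger in the older cultures, against 0.185% of all genes, or 4 of 30 without ISG15, IFIH1 and CMPK2, which passed the filter only through 8 h. For IL8 the rises were 7.92 and 8.05, and the difference of 0.12 had an SE of 0.814 (adjusted p 0.954). That error is larger than the difference, so the test does not show that IL8 rose alike at both ages. The mean of IL8 at 8 h was 36.3 CPM in 5-month and 131 CPM in 16-month cultures. CCL2 rose by 4.79 at both ages, with an SE of 0.111 for the difference. The sterol list had medians of -0.66 and -0.58 and 0 called differences in either direction.

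ACAN, the cartilage proteoglycan, rose from 0.791, 0.235 and 0.941 CPM to 3.05, 0.398 and 3.92 CPM (1.81 ± 0.153), while in 16-month cultures its change was -0.14, and the difference of -1.95 was called. ABCA1 fell by 1.83 at 5 months and had a log2 change of 0.10, upwards, at 16 months, but that difference did not pass the test (1.93, adjusted p 0.179). HDAC9, a histone deacetylase, was not called in 5-month cultures (3.94, 9.87 and 3.83 CPM at 0 h, then 3.77, 8.89 and 4.65 CPM) but fell by 2.49 in the 16-month ones.

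The count of 35 differences depended on single cultures. It was 0 without the replicate block, 1 without 5-month replicate 1 and 93 without 16-month replicate 2, whereas the 205 calls ranged from 195 to 248 when any culture was left out.

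Windows that the files give no gene name changed as well, with 124 of 6898 (1.80%) called in 5-month cultures at 8 h, 81 (1.17%) higher and 43 (0.623%) lower, or 74 of 6884 (1.07%) higher without the 14 windows that passed the filter only through 8 h.

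**Figure D5:**
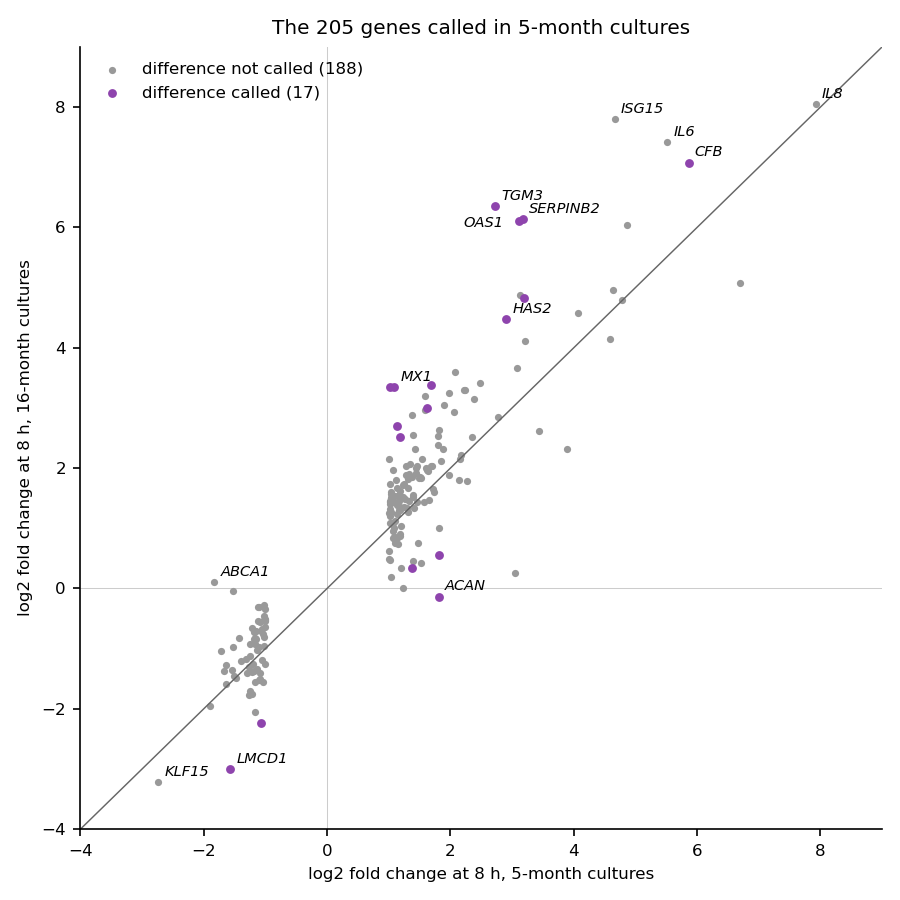
For the 205 genes called in 5-month cultures, the log2 fold change at 8 h in 16-month cultures is plotted against that in 5-month cultures; the line marks equal change. Purple points are the 17 genes whose difference between the ages was called, among them OAS1 at 3.12 and 6.11 and ACAN at 1.81 and -0.14.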

How the data were processed

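RNA of 18 samples was sequenced, from 6 fibroblast cultures at 0, 2 and 8 h, and the 6 libraries of 5-month cultures at 0 h and 8 h form the main comparison. The deposited files hold raw read counts per window. According to the methods, the authors filtered reads by quality, matched them to the UMD 3.1 bovine assembly with NextGENe 2.3.4 and counted reads per gene. Counts came to between 1.54 and 1.66 per matched read in the 6 libraries. A read may thus enter more than 1 window, but the reason is not given and was not tested. Use of strand is not given in the sources used here, so overlapping genes (3905 of 27550 gene windows) are uncertain. Where a symbol stood on more than 1 window, the window with most reads carries it.

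The tests ran in R 4.3.3 with the two-sided quasi-likelihood F test of edgeR 4.0.16 and TMM factors over the 12 libraries at 0 h and 8 h of both ages, with the culture as block and a CPM of at least 1 in at least 6 of 12 libraries. The 2 h comparison used the 9 5-month libraries (at least 5 of 9). Errors of log2 changes, written as SE, are the absolute log2 change divided by the square root of the F statistic. They were derived from the test and not estimated directly, so they are approximate. Errors of CPM are SD of 3 libraries. Per the labels a replicate number is an animal. Deviations from the group mean at 0 h and 8 h correlated within animals 1, 2 and 3 with 0.510, 0.779 and 0.447, although animals 1 and 3 also correlated with each other (0.419 and 0.411).

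The 17 gene lists, the 7 marker lists and the genes to be named were chosen with earlier results of these data known. Of 411 listed symbols 389 are in the files. Named are the 15 largest rises and 10 largest falls with a mean of at least 1 CPM and the same sign in 3 pairs, up to 4 called members of each list, a set named by symbol that includes IL8, TLR4 and INSIG1, the 5 highest genes with 0 reads at 0 h, the 4 largest age differences in each direction and the 3 largest intergenic rises. Other genes were named after their values were seen. Alternatives were other scalings (RLE, upper quartile, library size), other filters, the likelihood-ratio test, DESeq2 1.42.0, limma-voom 3.58.1, no block, each culture left out and other sets of libraries. Some members of the lists are counted but not reported here by name.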

Additional observations from a re-analysis of the deposited data

Results flagged for a closer look

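The change at 8 h differed between the ages, by the test of the difference itself, for 14 of the named genes. The naming took in the 4 largest called differences in each direction, so this count is in part set by that choice. Over all genes tested the difference was called for 35 of 12972 (0.270%). In log2 units, as 16-month minus 5-month, the differences were 3.63 for TGM3, a transglutaminase of the skin, 3.00 for OAS1, 2.96 for SERPINB2, 2.81 for C26H10orf131, 2.26 for MX1, 1.69 for CMPK2, 1.64 for IFIH1, 1.56 for HAS2, 1.37 for PTGS1 and 1.22 for CFB. They were -2.50 for HDAC9, a histone deacetylase, -1.95 for ACAN, -1.80 for the glutamate receptor gene GRIK5 and -1.43 for LMCD1. TGM3 went from 0.194, 0.274 and 0.161 CPM to 2.00, 1.32 and 1.07 CPM in the 5-month cultures, and reached 42.0, 16.4 and 43.8 CPM in the older ones. Of the 6 fits that left out 1 culture, HDAC9 was called in 6 and SERPINB2 in 4, and the other 12 in 1 or 2.

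Windows without a gene name, which no comparison of genes used, also changed. Of those tested, 860 (12.5%) overlapped a named gene window, as did 9 of the 124 called. Of 6898 such windows tested, 124 (1.80%) were called, 81 higher and 43 lower at 8 h than at 0 h in 5-month cultures. Of the tested windows 14 were under 1 CPM in all 6 libraries at 0 h and passed the filter only through 8 h, and 7 of these were called higher, which leaves 74 of 6884. The largest rise, in 1 of these 7, was on chromosome 19, 14831158 to 14834531, the 3374 bases that follow the window of CCL5, from 0.0259, 0.0235 and 0.0179 CPM to 1.80, 1.25 and 2.45 CPM (6.25 ± 0.253). The next were on chromosome 6, 90709881 to 90842884, with 4.06 ± 0.197, where 114961 of 133004 bases lie in the window of CXCL2, itself called, and on chromosome 9, 76776875 to 76937940, between TNFAIP3 and PERP, with 3.63 ± 0.289. Of the 81 higher windows, 31 had a called gene as neighbour, against 139 of all 6898 windows tested.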

How the results depend on the processing

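In 5-month cultures the 205 calls at 8 h became 162 without the replicate block, of which 161 were among the 205, 137 with only the 6 5-month libraries and no block, 399 with no filter, 117 with a CPM of at least 1 in all 12 libraries, 5459 with no fold change minimum and 116 with all 18 libraries in one fit. That last fit holds the 16-month 2 h library of animal 3, whose log2 deviations from the other libraries had an SD of 1.38 against 0.266 to 0.429 elsewhere, and without it (17 libraries, chosen after seeing the data) there were 186. With 1 culture left out the count ran from 195 to 248, and RLE, upper-quartile and library-size scaling gave 205, 205 and 204. The 35 age differences became 0 without the replicate block (where 1086 genes had p under 0.05 before adjustment), 0 with all 18 libraries (364 such genes), 57 with no filter, 77 with the likelihood-ratio test, 66 with DESeq2 and 179 with no fold change minimum, and ran from 1 to 93 with 1 culture left out. The 421 calls between 2 h and 8 h became 276 with a CPM of at least 1 in all 9 libraries (122 higher, 154 lower), 454 with library size only (293 higher, 161 lower), 365 without the block and 378 to 518 with 1 animal left out. The 124 intergenic calls became 64 with a CPM of at least 1 in all 12 libraries, 93 without the block and 116 to 161 with 1 culture left out. Without the block the genes past the test as higher went from 17 to 8 in the interferon list, 8 to 3 in prostaglandin synthesis, 10 to 5 in BMP and Notch targets, 10 to 5 in matrix genes, 5 to 2 in complement and 7 to 4 in MHC class I. Of the 64 named genes called, 43 were called under every alternative that tested them. HDAC9, not called, turned from 0.013 to -0.0219 without the block, to -0.0195 with only the 6 5-month libraries and no block, and ran from -0.0958 (without 5-month replicate 3) to 0.0861 with 1 culture left out. PER2, not called, turned from 0.0463 to -0.0436 without 5-month replicate 3, within a range of -0.0436 to 0.159. Apart from what the alternatives' construction sets (fewer or more genes or libraries), the cause of these moves was not tested.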

Other observations

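The following genes, in no list, were among the 62 called lower. They were picked after their values were seen, so they stand for no group, and the proliferation list had 0 genes called lower. The centromere protein gene HJURP was at 11.1, 7.40 and 12.2 CPM at 0 h and 3.58, 3.74 and 4.05 CPM at 8 h (-1.44 ± 0.143, edgeR adjusted p 0.000347), without overlap between the times. FOXM1, a transcription factor of the mitotic genes, fell by 1.19, CDCA3 by 1.17, the kinetochore protein CENPF by 1.03, the kinase NEK2 by 1.02 and UBE2C, which helps cells leave mitosis, by 1.01. None of these was called in 16-month cultures, where HJURP changed by -0.83 and FOXM1 by -0.72, and none of the differences between the ages passed the test (adjusted p 0.144 for HJURP and 0.241 for FOXM1).

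Further called rises outside the lists included PDE4B, a cyclic AMP phosphodiesterase, at 2.38, the tight junction gene OCLN at 2.48, the oxysterol hydroxylase CYP7B1 at 1.98, CSPG4 at 1.38 and ALDH1A3, which makes retinoic acid, at 1.33 ± 0.0436. ALDH1A3 was at 40.7, 59.2 and 40.0 CPM at 0 h and 105, 141 and 105 CPM at 8 h. Among the falls, MNT, a repressor in the MYC network, averaged 10.2 CPM at 0 h and 3.61 CPM at 8 h (-1.52 ± 0.0727), and the abundant RNA helicase gene DDX17 averaged 204 and 102 CPM (-1.02 ± 0.0645), though its window overlaps KDELR3.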
